A study of Mus musculus with 12 samples.

Results

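The genes described here are 32 that mark the endothelium, the cell layer lining blood vessels. They were chosen by symbol, and all 32 were found among the 56647 gene rows with a value in every library. All 32 also passed the filter on low counts that left 9505 genes for testing. Endothelial cells of the heart form a dense capillary bed around each muscle cell. They pass fatty acids and water to the muscle, seal the vessel wall with cell junctions, and answer growth factors such as VEGF and angiopoietins through surface receptors. Their identity is kept by transcription factors of the ETS family, such as ERG, and of the SOXF group, SOX7, SOX17 and SOX18. After a coronary artery is closed, capillaries are lost with the dying muscle and vessels then grow back from the border, so these genes are commonly used to follow the vessel bed of an infarct.

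RNA came from myocardial tissue of wild-type mice in 3 groups, measured by sequencing of 3′ transcript ends. The first group held 3 mice labelled both as sham and as treated with vehicle, called sham vehicle mice. The second held 3 mice with ligation of the left coronary artery, which causes myocardial infarction (MI). The third held 4 mice with the same ligation and NECA given locally into the infarcted muscle, where NECA, or 5′-(N-ethylcarboxamido)adenosine, is an agonist of adenosine receptors. No vehicle is named for the MI mice. The effect of NECA and that of its local delivery therefore cannot be told apart, and neither can ligation and a lack of vehicle. Age, sex, the time after ligation and the part of the heart sampled are not stated in the labels. For MI mice 2 and 3 there was both a 1st and a 2nd library. The 1st libraries held 30.8 and 27.1 M counts (M for 1000000) and exist for MI mice alone, against 0.96 to 1.33 M in the 10 others, so each mouse was represented by its library of matched depth. At this depth members held between 4 and 686 counts per mouse. Levels are counts per 1000000 (CPM) after TMM scaling, a correction for differences in library composition, unless another scale is named, and "edgeR" stands for its two-sided quasi-likelihood test with p adjusted over all 9505 genes and a threshold of 0.05.

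Promoter sequence was available for 15 of the 32 genes, as 21 promoters in RefSeq's table on build GRCm38.p6, which is not the build of the counts (GRCm39). The letters AGGAAG or CGGAAG, the core of many ETS sites, were searched on both strands in the 250 bases before each start. They occurred in 12 of the 21 promoters, from 11 genes, and in 39.2% of all 32851 promoters of the table. The letters ACAAAG or ACAATG, found in many SOX sites, occurred in 5 of the 21 and in 25.2% of all. Of the 11 genes with ETS letters, 7 held them at most 89 bases before the start, and 1 stretch of 30 bases from each is shown. That limit is the position of the Egfl7 stretch printed here, and no other ground is given for it. Egfl7 also had a match at 49 bases, and Emcn, at 93, fell just outside the limit. Each is printed 5′ to 3′ on the gene's strand with the matched letters in capitals, where CTTCCT is AGGAAG on the opposite strand. They lie at chr2:26580982-26581011 (plus strand) for Egfl7, chr2:32646531-32646560 (plus) for Eng, chr9:37401911-37401940 (plus) for Robo4, chr5:147726047-147726076 (minus) for Flt1, chr6:55336258-55336287 (plus) for Aqp1, chr15:75048684-75048713 (minus) for Ly6c1 and chr16:95459371-95459400 (minus) for Erg, each at one of the listed starts where a gene has several.
Egfl7: tgggagacaaacAGGAAGgccatctctctg
Eng: aagcctgtggcaCTTCCTctactcgcctgg
Robo4: tgagggccaggcAGGAAGcatccgtttcct
Flt1: aggtgccggggtAGGAAGtgggctggggaa
Aqp1: gagggggagaggAGGAAGgaaaaagttggc
Ly6c1: gagtgtgggattAGGAAGgaagagctgggt
Erg: caatagaaacctCTTCCTgccattggctga
A match is a run of letters and not a binding site. These 7 genes had no common direction: Egfl7, Erg and Ly6c1 had higher values in every MI mouse than in any sham vehicle mouse, Eng had lower values, and in Aqp1, Flt1 and Robo4 the groups overlapped.

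The genes were read in every mouse. Together they took 0.254%, 0.301% and 0.337% of the counts in the sham vehicle mice, 0.331%, 0.333% and 0.383% in the MI mice, and 0.319%, 0.332%, 0.329% and 0.303% in the NECA-treated mice. As CPM of library totals the sum was 2971 ± 417 (SD, n = 3), 3490 ± 295 (SD, n = 3) and 3208 ± 131 (SD, n = 4). Sham vehicle mouse 3 lay above 2 of the 3 MI mice and above all 4 NECA-treated mice, so the groups overlapped on this scale. With TMM scaling the sum was 2902 to 3275 CPM in sham vehicle, 3328 to 3604 in MI and 3170 to 3337 in NECA-treated mice, and the sham vehicle and MI mice did not overlap. Per length, in the deposited transcripts per 1000000 (TPM), Fabp4 stood first with a mean of 589 over the mice. Egfl7 (142), Ly6c1 (135), Aqp1 (122) and Cav1 (119) followed within each other's ranges, and Bmpr2 was last with 4.26. The order differed without length scaling: in CPM Bmpr2 had a mean of 62.0, and Cldn5 was lowest with 13.2. In bulk tissue, fewer endothelial cells and less RNA per cell cannot be told apart, and the same holds for higher values.

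**Figure D1:**
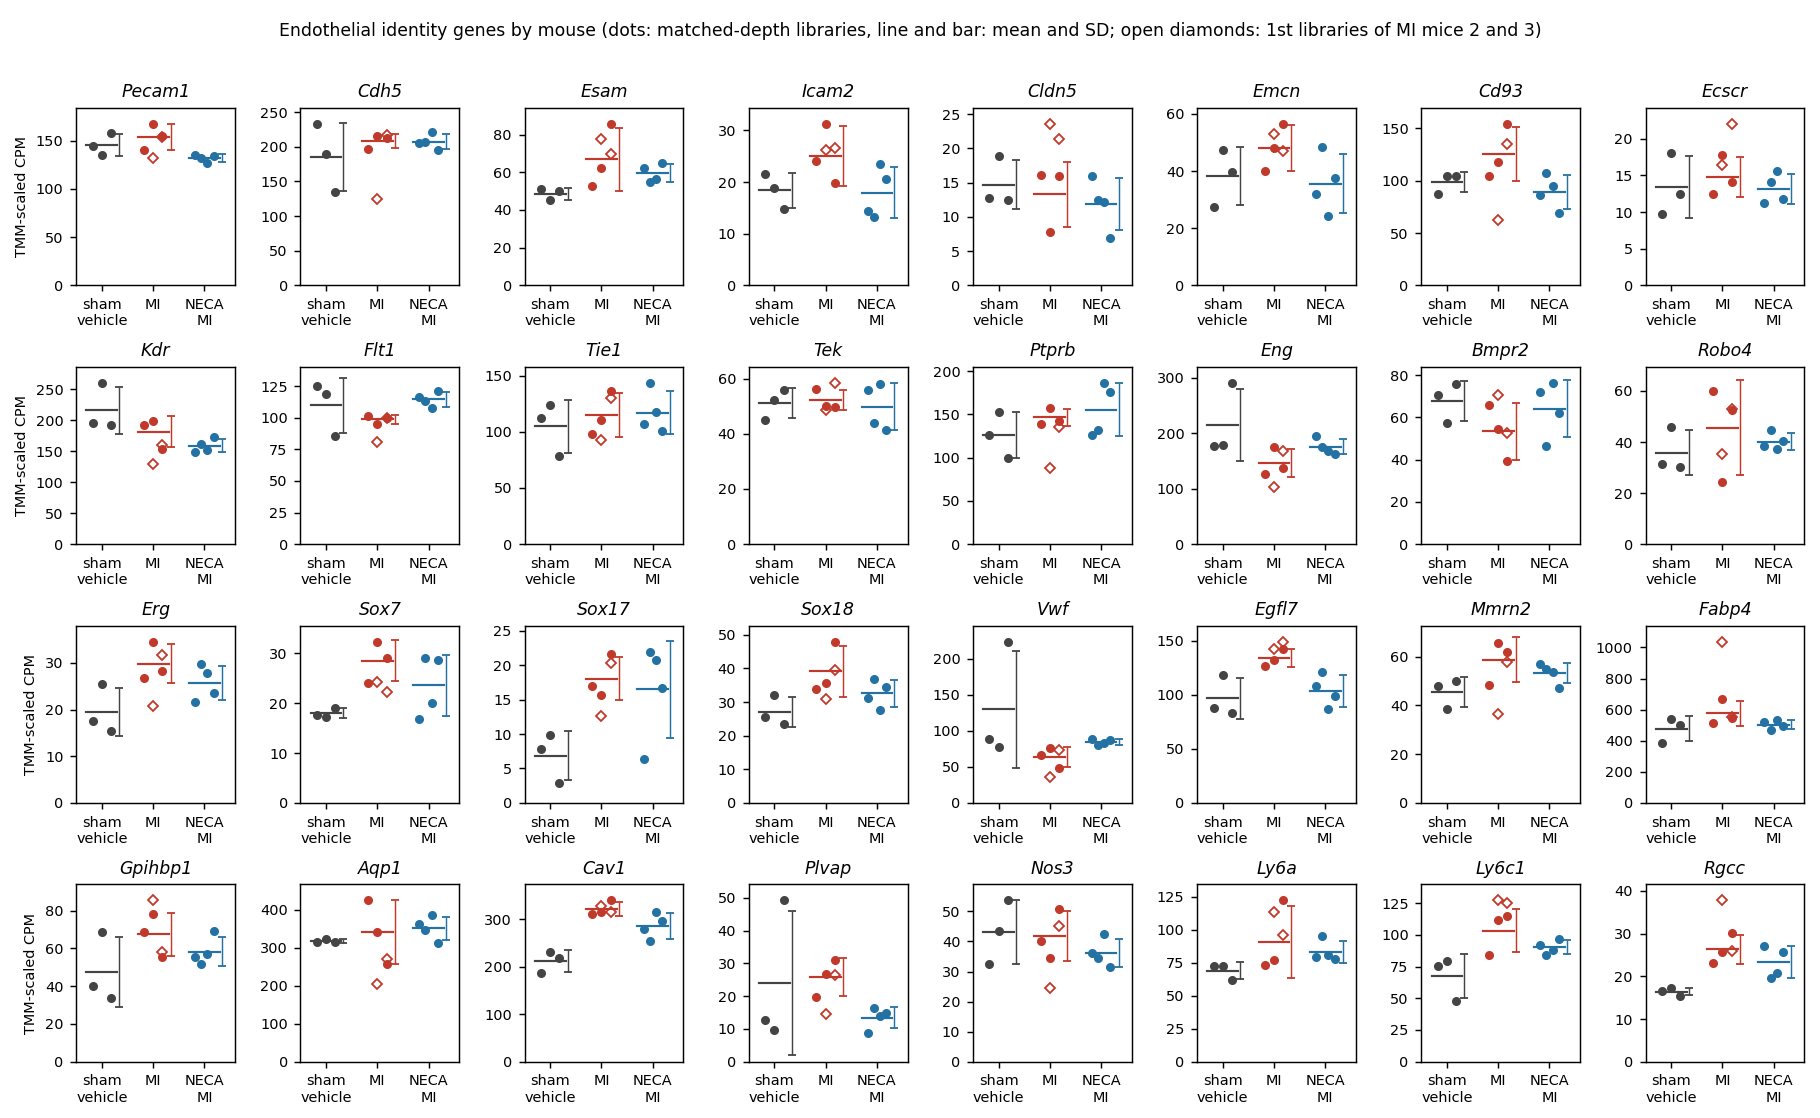
TMM-scaled CPM of each of the 32 genes on axes from 0, with 1 dot per mouse in the sham vehicle, MI and NECA-treated MI groups, the mean as a line, the SD as a bar, and open diamonds for the 1st libraries of MI mice 2 and 3. Cav1 in the MI mice lies between 311 and 339, above the sham vehicle mice at 186 to 231, while Vwf in sham vehicle mouse 3 stands alone at 223.

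Ligation was compared with sham vehicle to ask how the vessel genes of the muscle stood after infarction. No member passed the threshold, against 7 of 9505 genes (0.0736%), and the smallest adjusted p of a member was 0.229, for Cav1 (edgeR). At an unadjusted p under 0.05, 11 of the 32 had higher and 2 had lower values in MI, where 6.19% and 5.8% of all genes did. In 10 members every MI mouse lay above every sham vehicle mouse, and in 2, Eng and Vwf, every MI mouse lay below, where 7.14% and 7.12% of all genes did. Of the fold changes, 25 were above 0 and 7 below, where 49.1% of all genes were above 0. The median was 0.30 on the log2 scale, where all genes had a median of -0.01. By DESeq2 no member passed either, and at the unadjusted level 4 had higher and 2 lower values, where 693 of 9487 genes reached that level in either direction, against 1139 of 9505 by edgeR. Leaving out sham vehicle mouse 3, the edgeR counts of members were 8 and 0 (1530 of 9797 genes in either direction), and without MI mouse 3 they were 7 and 1 (654 of 9777).

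**Figure D2:**
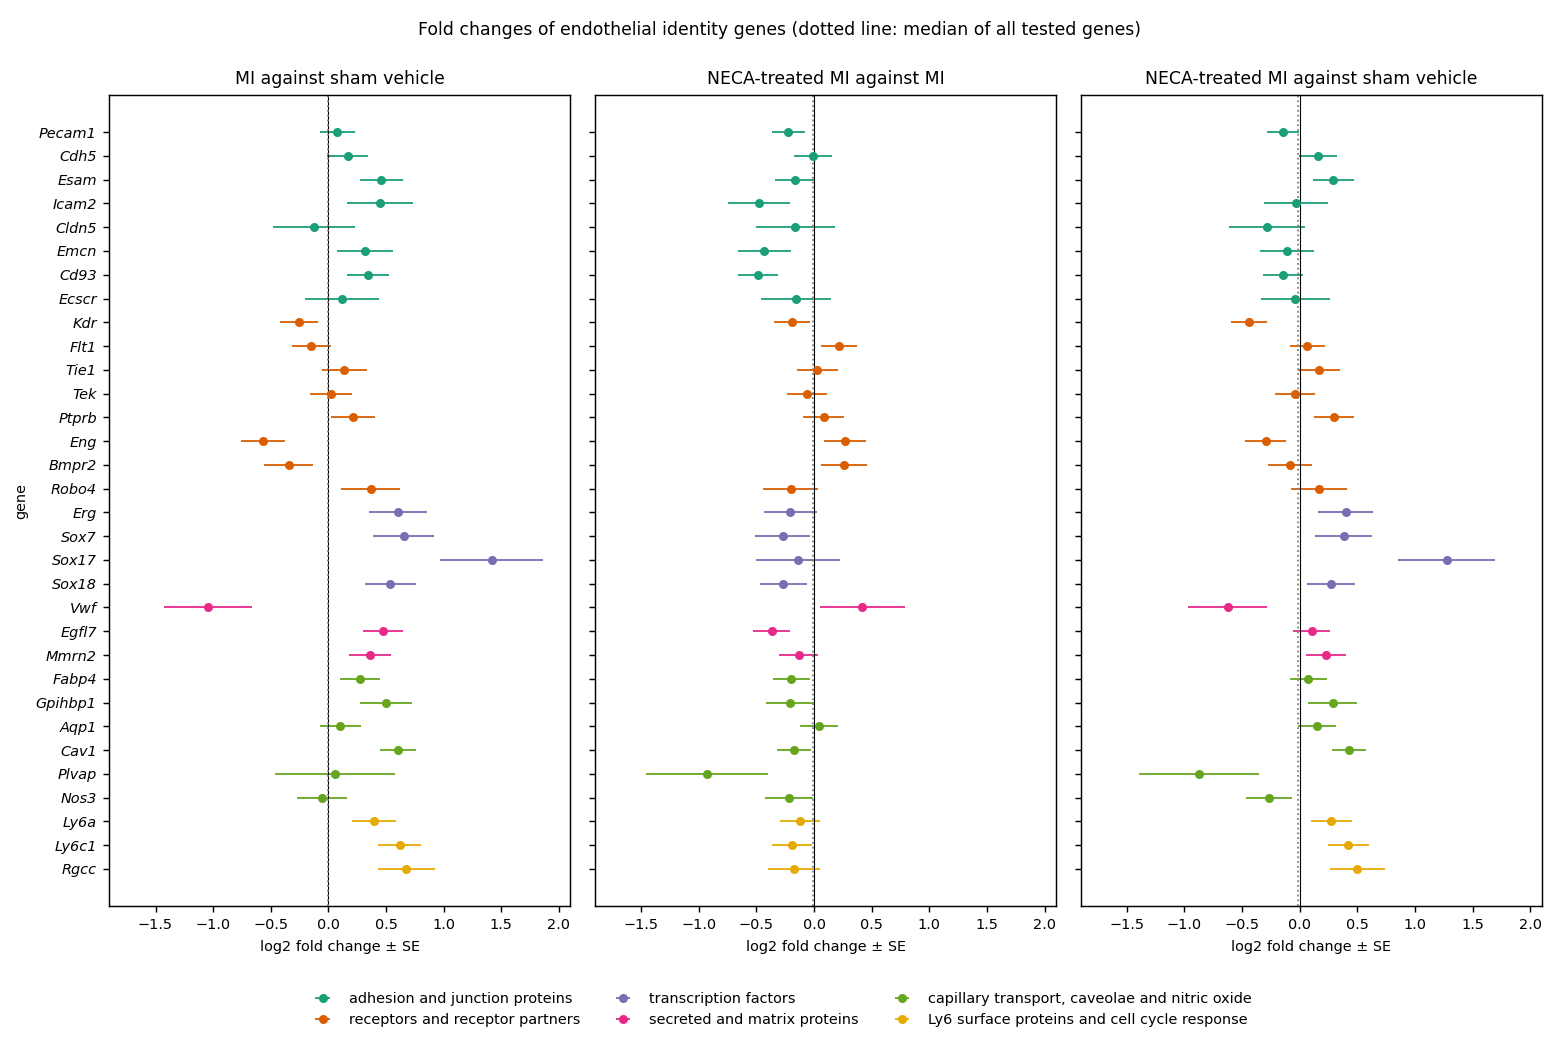
Log2 fold change with its standard error for each gene in MI against sham vehicle, NECA-treated MI against MI, and NECA-treated MI against sham vehicle, coloured by role, with the median of all tested genes as a dotted line. The transcription factors lie between 0.54 and 1.42 in the first panel and between -0.27 and -0.14 in the second. Both panels use the same MI mice, with opposite signs, and are not independent.

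Transcription factors had the highest median of the 6 roles in MI against sham vehicle, 0.63. All 4 had higher values at an unadjusted p under 0.05 (6.19% of all genes) and without overlap of the groups (7.14%). None passed the threshold. In Erg, Sox17 and Sox18 the lowest of all mice was sham vehicle mouse 3. Erg (ENSMUSG00000040732), an ETS factor that switches on junction and receptor genes, measured 17.7, 25.4 and 15.4 CPM in sham vehicle mice, 26.8, 34.5 and 28.2 in MI mice, and 21.6, 29.8, 27.7 and 23.6 in NECA-treated mice. The MI mice lay above the sham vehicle mice by a small margin, and the 1st library of MI mouse 2 gave 20.7, inside the sham range. Its log2 fold change was 0.61 (SE 0.25, adjusted p = 0.364, edgeR).
Sox17 (ENSMUSG00000025902), a SOXF factor of arterial specification, had the largest fold change of the 32. It measured 7.85, 9.83 and 2.94 CPM in sham vehicle mice, 17.0, 15.6 and 21.6 in MI mice, and 6.41, 21.9, 20.8 and 16.7 in NECA-treated mice. NECA-treated mouse 1 fell in the sham range, and all other ligated mice lay above it. These levels rest on few counts, 8, 12 and 4 in the sham vehicle mice and 19, 14 and 23 in the MI mice. The fold change was 1.42 (SE 0.44, adjusted p = 0.247, edgeR), and 1.01 without sham vehicle mouse 3. With no filter on low counts, which raised the genes tested to 20308 and the genes called from 7 to 191, the adjusted p of Sox17 was 0.0392 (edgeR), and over the 20 alternatives it ranged up to 0.669. Sox18 (ENSMUSG00000046470), a SOXF factor of blood and lymph vessels, measured 25.5, 31.9 and 23.5 CPM in sham vehicle, 33.9, 35.7 and 47.9 in MI, and 31.2, 36.8, 27.7 and 34.5 in NECA-treated mice. Its MI mice lay above the sham vehicle mice, but the 1st library of MI mouse 2 (30.7) did not clear sham vehicle mouse 2. The fold change was 0.54 (SE 0.22, adjusted p = 0.364, edgeR). Sox7, the remaining SOXF factor, ranged from 17.2 to 19.1 CPM in sham vehicle and from 24.1 to 32.3 in MI mice, with a fold change of 0.65 (SE 0.26, adjusted p = 0.355, edgeR).

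The Ly6 surface proteins and Rgcc, a cell cycle response gene found in capillary endothelium, had a median of 0.62. All 3 had higher values in MI at an unadjusted p under 0.05 (6.19% of all genes) and without overlap (7.14%). In all 3 the lowest of all mice was sham vehicle mouse 3. Ly6c1 (ENSMUSG00000079018), a surface protein of mouse capillary endothelium and monocytes, measured 75.5, 79.4 and 47.8 CPM in sham vehicle, 83.9, 111 and 115 in MI, and 92.1, 83.8, 88.4 and 96.5 in NECA-treated mice. All ligated mice, treated or not, lay above the 3 sham vehicle mice. The fold change of MI against sham vehicle was 0.62 (SE 0.19, adjusted p = 0.247, edgeR). Ly6c1 has a near-identical copy, Ly6c2, which held at most 4.46 CPM, so how reads were divided between them is uncertain.
Ly6a (ENSMUSG00000075602), the stem cell antigen Sca-1, which fibroblasts and leukocytes also carry, measured 72.6, 72.9 and 61.7 CPM in sham vehicle, 73.2, 76.9 and 122 in MI, and 79.3, 95.6, 80.6 and 77.8 in NECA-treated mice. MI mouse 1 was level with the highest sham vehicle mice, and MI mouse 3 stood far above both other MI mice. The fold change was 0.40 (SE 0.19, adjusted p = 0.413, edgeR) and was 0.12 without MI mouse 3. In that mouse the summed fibroblast list was 11612 CPM, against 2512 and 3339 in the other MI mice, and the part of this in Ly6a was not tested. Rgcc ranged from 15.4 to 17.2 CPM in sham vehicle, 23.2 to 30.1 in MI and 19.6 to 27.2 in NECA-treated mice, a fold change of 0.68 (SE 0.25, adjusted p = 0.31, edgeR) between the first groups.

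Among 6 genes of capillary transport, caveolae and nitric oxide the median was 0.19. At an unadjusted p under 0.05, 2 had higher values in MI (6.19% of all genes). Cav1 (ENSMUSG00000007655) encodes caveolin-1, the coat protein of caveolae, and had the smallest p of the 32. It measured 186, 231 and 218 CPM in sham vehicle, 311, 315 and 339 in MI, and 279, 253, 315 and 296 in NECA-treated mice. All 7 ligated mice lay above the 3 sham vehicle mice, with 328 and 314 in the other libraries of MI mice 2 and 3. The fold change of MI against sham vehicle was 0.60 (SE 0.16, adjusted p = 0.229, edgeR), 0.62 without sham vehicle mouse 3 and 0.56 without MI mouse 3. Adipocytes and smooth muscle also carry caveolae. The summed adipocyte list was 256, 319 and 2654 CPM in the sham vehicle mice and 686, 387 and 166 in the MI mice. Summed pericyte and smooth muscle genes ranged from 2064 to 2679 CPM in sham vehicle and from 2669 to 3012 in MI mice, and the part of either list in the Cav1 result was not tested.
Fabp4 (ENSMUSG00000062515), a fatty acid carrier of capillaries and adipocytes, measured 388, 542 and 504 CPM in sham vehicle, 516, 669 and 549 in MI, and 519.6, 471, 534 and 492 in NECA-treated mice. The groups overlapped, with a fold change of 0.27 (SE 0.17, adjusted p = 0.55, edgeR) in MI. The part of the adipocyte genes given above was not tested. Aqp1 (ENSMUSG00000004655), a water channel of capillaries and red cells, measured 314, 323 and 315 CPM in sham vehicle, 424, 341 and 257 in MI, and 362, 346, 385 and 312 in NECA-treated mice. The MI mice lay on both sides of the sham vehicle mice, with a fold change of 0.10 (SE 0.18, adjusted p = 0.862, edgeR). Erythroid genes summed to 735, 2807 and 1092 CPM in MI mice 1, 2 and 3, and their part in Aqp1 was not tested. Gpihbp1, which carries lipoprotein lipase to the capillary lumen, had a fold change of 0.50 (SE 0.23, adjusted p = 0.399, edgeR). Nos3, the endothelial nitric oxide synthase, had -0.05 (SE 0.22), and Plvap, the protein of fenestral diaphragms, 0.06 (SE 0.52).

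The 8 adhesion and junction proteins had a median of 0.24, and 7 of 8 fold changes were above 0 (49.1% of all genes). At an unadjusted p under 0.05 only 1 member, Esam, had higher values (6.19% of all genes). Cdh5 (ENSMUSG00000031871), the VE-cadherin of endothelial junctions, measured 232, 190.0 and 134 CPM in sham vehicle, 196, 215 and 212 in MI, and 206, 206, 221 and 195 in NECA-treated mice. The sham vehicle mice spanned both other groups, and the fold change was 0.17 (SE 0.18, adjusted p = 0.745, edgeR). Pecam1 (ENSMUSG00000020717), the adhesion molecule CD31, measured 144, 135 and 158 CPM in sham vehicle, 140.2, 167 and 155 in MI, and 135, 132, 127 and 134 in NECA-treated mice. MI and sham vehicle mice overlapped, with a fold change of 0.08 (SE 0.15, adjusted p = 0.88, edgeR). Both of these widely used markers of endothelium had smaller fold changes than any of the 4 transcription factors, a contrast that was not tested. Esam, a tight junction adhesion molecule, ranged from 45.0 to 51.0 CPM in sham vehicle and from 52.7 to 85.5 in MI mice (fold change 0.46, SE 0.19, adjusted p = 0.36, edgeR). Icam2, an adhesion molecule for leukocytes (0.45, SE 0.29), Ecscr, a regulator of endothelial migration (0.12, SE 0.32), and the claudin Cldn5 (-0.12, SE 0.36) overlapped between the groups.

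The 8 receptors and their partners had no common direction, with a median of -0.06 and 4 fold changes on each side of 0. Kdr (ENSMUSG00000062960), the main signalling receptor of VEGF, measured 196, 260.4 and 193 CPM in sham vehicle, 192, 199 and 153 in MI, and 149, 162, 153 and 173 in NECA-treated mice. The MI mice overlapped with the sham vehicle mice, whereas every NECA-treated mouse lay below every sham vehicle mouse. The fold change of MI against sham vehicle was -0.25 (SE 0.17, adjusted p = 0.56, edgeR). Eng (ENSMUSG00000026814), the co-receptor endoglin for BMP9 and BMP10, measured 177, 179 and 291 CPM in sham vehicle, 126, 175 and 138 in MI, and 195, 175, 169 and 164 in NECA-treated mice. MI mouse 2 lay just under the lower sham vehicle mice, and sham vehicle mouse 3 lay above every other mouse. The fold change was -0.57 (SE 0.19, adjusted p = 0.268, edgeR), and -0.29 without sham vehicle mouse 3. Its partner receptor Bmpr2 had -0.35 (SE 0.21) and Flt1, the decoy VEGF receptor, -0.15 (SE 0.17). The angiopoietin receptor Tek and its relative Tie1 had 0.02 (SE 0.19) and 0.14 (SE 0.19), the phosphatase Ptprb that restrains Tek had 0.21 (SE 0.19), and the guidance receptor Robo4 had 0.37 (SE 0.26). None of these 6 reached an unadjusted p under 0.05, where 6.19% of all genes had higher and 5.8% lower values at that level.

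The 3 secreted and matrix proteins parted. Egfl7 (ENSMUSG00000026921), a matrix protein that guides vessel tubes, measured 88.3, 119 and 83.0 CPM in sham vehicle, 127, 133 and 143 in MI, and 108, 121, 86.7 and 98.5 in NECA-treated mice. All MI mice lay above all others, and the 1st libraries gave 142 and 149. The fold change of MI against sham vehicle was 0.47 (SE 0.17, adjusted p = 0.308, edgeR), and 0.36 without sham vehicle mouse 3. Vwf (ENSMUSG00000001930), the clotting factor stored by endothelium, endocardium and platelets, measured 88.3, 77.0 and 223 CPM in sham vehicle, 66.1, 75.8 and 48.9 in MI, and 88.1, 79.9, 83.2 and 87.7 in NECA-treated mice. Its sham level was set by mouse 3, and sham vehicle mouse 2 lay just above MI mouse 2. The fold change was -1.04 (SE 0.38, adjusted p = 0.359, edgeR), and -0.39 without sham vehicle mouse 3. With no filter on low counts the adjusted p of Vwf was 3.27e-04 (edgeR), that mouse included, and over the 20 alternatives it ranged up to 0.787. Mmrn2, a matrix partner of Cd93, ranged from 38.5 to 50.0 CPM in sham vehicle and from 48.2 to 65.7 in MI mice (0.36, SE 0.18, adjusted p = 0.439, edgeR).

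Sham vehicle mouse 3 stood apart in genes of other tissue. Npr3, a natriuretic peptide receptor of endocardium, measured 83.0 CPM there and 18.6 and 16.4 in the other sham vehicle mice. The atrial light chain gene Myl7 had 734 CPM against at most 0.89 in any other mouse of matched depth, and Bmp10, the atrial ligand of endoglin, had 824 CPM and no count in the other 9 mice, where a count of 0 allows at most 3.34 CPM, taken as 3 counts in the library where they weigh most and covering counting error only. The endocardial list without Vwf summed to 215 CPM against 62.2 and 66.7 in the other sham vehicle mice. The platelet list without Vwf did not set this mouse apart, at 21.3 CPM against 10.6 and 11.8 there and 20.7 in MI mouse 3. The defining adipocyte gene Adipoq had 101 CPM there and no count in the other 2 sham vehicle mice. Among the 32 genes this mouse was the highest of all 10 in 4 and the lowest in 12, among them Cdh5, Ly6c1, Sox17 and Erg, where it was the highest in 11.3% and the lowest in 9.48% of all tested genes. The 4 were Vwf, Eng, Nos3 and Plvap, and Plvap, named here after its values were seen, had 49.2 CPM there against 12.7 and 9.83 in the other sham vehicle mice. Without this mouse, Plvap in MI against sham vehicle had a fold change of 1.19 in place of 0.06, with an unadjusted p of 0.00254 and an adjusted p of 0.115 (edgeR). What part the atrial and fat transcripts had in these values was not tested. MI mouse 3 was extreme in a larger share of all tested genes, the highest in 20.1% and the lowest in 21.1%. Among the 32 genes it was the highest in 9 and the lowest in 3.

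**Figure D3:**
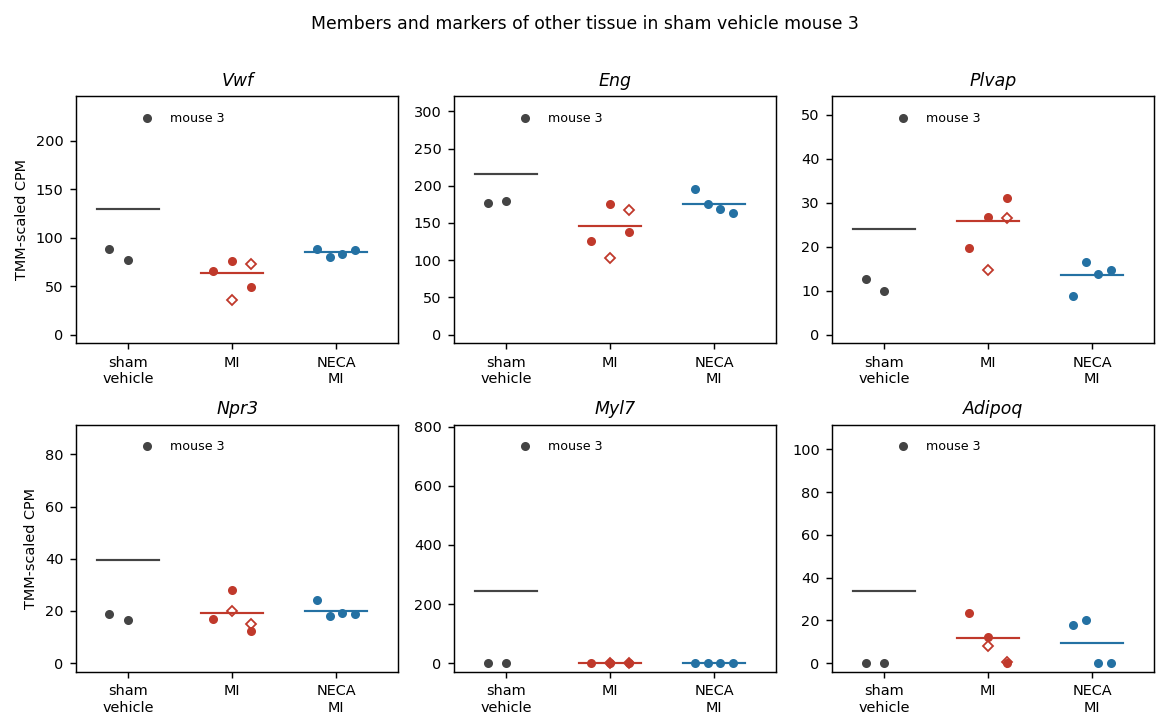
TMM-scaled CPM per mouse of 3 members (Vwf, Eng, Plvap) and of marker genes of endocardium (Npr3), atrial muscle (Myl7) and adipocytes (Adipoq), with the group mean as a line and open diamonds for the 1st libraries of MI mice 2 and 3. Sham vehicle mouse 3 is the highest mouse in all 6 panels.

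NECA delivery after ligation was compared with ligation alone to ask whether the vessel genes differed under treatment. No gene of 9505 passed the threshold (0%), and so no member did. The smallest adjusted p over all genes was 0.793 (edgeR), with 577 genes at an unadjusted p under 0.05, and DESeq2 also called none, with 266 genes at that level. At an unadjusted p under 0.05, no member had higher values (3% of all genes) and 2 had lower values (3.07% of all genes), Cd93 and Egfl7, so the count was near the background. In 2 members, Flt1 and Vwf, every NECA-treated mouse lay above every MI mouse, and in 3, Egfl7, Pecam1 and Plvap, every one lay below, where 3.88% and 3.61% of all genes did. Of the fold changes, 25 were below 0 and 7 above, with a median of -0.17, against -0.01 for all genes. Of all genes, 48.5% had fold changes above 0. The same MI mice enter this comparison and that of MI against sham vehicle, with opposite signs. High values in those mice would raise the first set of fold changes and lower this one, so the sets are not independent. Without MI mouse 3 the median of the members was -0.10 and 10 of their fold changes were above 0.

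Cd93 (ENSMUSG00000027435), a receptor of sprouting endothelium, had the smallest p. It measured 87.3, 105 and 104 CPM in sham vehicle, 104, 118 and 154 in MI, and 86.5, 107, 95.3 and 69.0 in NECA-treated mice. The 1st library of MI mouse 2 gave 62.1, below all NECA-treated mice. The fold change of NECA-treated against MI mice was -0.48 (SE 0.17, adjusted p = 0.793, edgeR), and -0.31 without MI mouse 3. For Egfl7, given above, it was -0.37 (SE 0.16, adjusted p = 0.793, edgeR). Emcn (ENSMUSG00000054690), a sialomucin of capillaries and veins, measured 27.5, 47.5 and 39.7 CPM in sham vehicle, 40.2, 47.9 and 56.4 in MI, and 32.03, 48.6, 24.3 and 37.4 in NECA-treated mice. The treated and untreated MI mice overlapped, with a fold change of -0.43 (SE 0.23, adjusted p = 0.83, edgeR). All 8 adhesion and junction proteins had fold changes below 0, from -0.48 to -0.01 with a median of -0.19. So had the 4 transcription factors, with a median of -0.24. Among these, Cdh5, Esam, Cldn5, Ecscr, Erg and Sox17 lay within 1 SE of 0 and have no direction. The receptors had a median of 0.06, with Eng at 0.27 (SE 0.18) and Bmpr2 at 0.26 (SE 0.20). Missing the threshold does not show that the groups were alike, since the standard errors of the members ran from 0.14 to 0.53.

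NECA-treated mice were also compared with sham vehicle mice. This comparison shares its sham vehicle mice with the first and its treated mice with the second. Those comparisons in turn share the MI mice, with opposite signs, so the 3 sets of fold changes are not independent. No member passed the threshold, against 1 gene of 9505 (0.0105%), and DESeq2 called no member either. At an unadjusted p under 0.05, 4 had higher values, Sox17, Cav1, Ly6c1 and Rgcc (3.07% of all genes), and 1, Kdr, had lower values (2.96%). In 5 members, Cav1, Esam, Ly6a, Ly6c1 and Rgcc, every treated mouse lay above every sham vehicle mouse (4.27% of all genes), and in Kdr every one lay below (4.29%). The median was 0.12, with 19 fold changes above 0 and 13 below, against -0.01 for all genes, of which 47.9% were above 0. Sox17 had a fold change of 1.28 (SE 0.42, adjusted p = 0.752, edgeR), Cav1 of 0.43 (SE 0.15, adjusted p = 0.788, edgeR) and Kdr of -0.44 (SE 0.16, adjusted p = 0.788, edgeR). Without sham vehicle mouse 3 these were 0.87, 0.45 and -0.52, and the median of the 32 was 0.04.

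The other genes of the vessel bed were described in the same way for MI against sham vehicle. Their lists hold none of the 32 except Vwf in the endocardium. Some genes are in several of these lists, among them Aplnr and Vcam1, so the lists are not independent. Of 60 other endothelial genes 54 were tested, and none passed the threshold. At an unadjusted p under 0.05, 10 had higher and 0 lower values, where 6.19% and 5.8% of all genes did. The median was 0.13, against -0.01 for all genes. Aplnr, the apelin receptor of veins and sprouting vessels, measured 38.2, 34.4 and 30.1 CPM in sham vehicle, 52.7, 60.2 and 94.9 in MI, and 63.3, 66.6, 53.7 and 40.4 in NECA-treated mice, so every ligated mouse lay above the sham vehicle mice. Its fold change was 1.02 (SE 0.23, adjusted p = 0.121, edgeR), and 0.72 without MI mouse 3 (adjusted p = 0.646, edgeR). Klf2, a transcription factor that answers blood flow, had 0.80 (SE 0.22, adjusted p = 0.234, edgeR), and 1.09 with the 1st libraries of MI mice 2 and 3 (adjusted p = 0.0416, edgeR). Over its 20 alternatives the adjusted p of Klf2 ran from 0.0392 to 0.658, with 3 under the threshold. The 6 tested venous genes all had fold changes above 0 (49.1% of all genes), with a median of 0.73. At an unadjusted p under 0.05, 2 had higher values (6.19% of all genes), Aplnr and the leukocyte adhesion molecule Vcam1 (0.83, SE 0.32). Summed, the venous list was 713 CPM in MI mouse 3 and 388 and 347 in the other MI mice, against 234 to 436 in sham vehicle mice. Of 10 tested arterial genes 8 were above 0, with a median of 0.30, although the arterial gap junction gene Gja5 had -1.45 (SE 0.61, adjusted p = 0.383, edgeR), and Fbln5, an elastic fibre gene, 1.12 (SE 0.52). The values of Gja5, Fbln5 and Vcam1 rested on single mice: Gja5 was -0.12 without sham vehicle mouse 3, and without MI mouse 3 Fbln5 was 0.29 and Vcam1 0.28, none at an unadjusted p under 0.05.

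Ccl21a, a chemokine of lymphatic endothelium, was the one gene of these lists past the threshold. It measured 8.83, 9.83 and 14.7 CPM in sham vehicle, 34.8, 23.4 and 52.6 in MI, and 24.0, 32.1, 24.3 and 32.5 in NECA-treated mice, so no ligated mouse reached down to the sham range. Its fold change in MI was 1.71 (SE 0.31, adjusted p = 0.036, edgeR), the adjusted p ranged from 9.52e-06 to 0.295 over the 20 alternatives, and 10 of them kept the call. It was lost without sham vehicle mouse 1 (0.119) or 2 (0.241), without MI mouse 3 (0.208) and without any of the 4 NECA-treated mice (0.0581 to 0.0758). It was also lost with no scaling beyond library totals (0.0691), with limma (0.295) and with the 2 groups alone (0.262). The 7 tested lymphatic genes had a median of 0.23. Ccl21a has near-identical copies, which makes its level uncertain, and the next lymphatic gene, Pdpn, had 0.9998 (SE 0.52, adjusted p = 0.446, edgeR), 2.02 without sham vehicle mouse 3 and 0.61 without MI mouse 3. Of 23 ligands of endothelial receptors 13 were tested, with a median of 0.11 and none past the threshold. Angpt1, the angiopoietin that activates Tek, had -1.25 (SE 0.54, adjusted p = 0.413, edgeR), with 83.0 CPM in sham vehicle mouse 3, 39.2 and 33.6 in the other 2 and 24.1, 35.7 and 7.52 in the MI mice. It was -0.72 without sham vehicle mouse 3 and -0.83 without MI mouse 3. Vegfb had -0.31 (SE 0.17). Of the 12 genes of sprouting and proliferation 8 were tested, with 4 on each side of 0 and a median of 0.03. Of the 7 genes of activated endothelium 2 were tested, Vcam1 and Icam1 (0.75, SE 0.34), and both were above 0. Icam1 was 0.48 without sham vehicle mouse 1 and 1.29 without sham vehicle mouse 3. Endocardial genes, 5 tested, had a median of -0.68, with Npr3 at -1.11 (SE 0.66) and Plxna4 at -0.68 (SE 0.35), the mouse 3 values included. Plxna4 was -0.05 without sham vehicle mouse 3.

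Markers of other cells also varied in level between mice. In every list summed here the sham vehicle and MI mice overlapped, and no tested gene of these lists passed the threshold in that comparison. The 12 ventricular cardiomyocyte genes summed to between 63734 and 90291 CPM in sham vehicle, 47042 and 74242 in MI and 67284 and 80004 in NECA-treated mice. Fibroblast genes summed to between 1542 and 3438, 2512 and 11612, and 2569 and 5770 CPM in the same order. The 11612 was that of MI mouse 3. Of 16 tested genes of monocytes and macrophages, 15 had fold changes above 0 in MI, with a median of 1.16, and their sum ranged from 271 to 582 CPM in sham vehicle, 476 to 1287 in MI and 614 to 967 in NECA-treated mice. The 11 tested pericyte and smooth muscle genes had a median of 0.11, with 9 fold changes above 0 and 2 below. At an unadjusted p under 0.05, 2 had higher values (6.19% of all genes). Rgs5, a pericyte gene, had 0.72 (SE 0.18, adjusted p = 0.219, edgeR). Pdgfrb, the next by p, ran from 0.51 to 1.14 over its 20 alternatives. B cell genes summed to between 64.7 and 301 CPM in sham vehicle and 244 and 1308 in MI mice, and T and NK cell genes to at most 44.1. Neutrophil genes stayed at or under 10.8 CPM in every mouse, with 4 of the 7 at 0 in at least 8 mice. The atrial list summed to 6982 CPM in sham vehicle mouse 3 and 3486 in MI mouse 3, against 87.7 to 317 in the other 8 mice. By the values given above, Myl7 and Bmp10 made up almost none of the sum in MI mouse 3. That sum came from other genes of the list, so these mice were not alike in atrial genes. How far the levels of these markers entered those of the endothelial genes, which are shares of all RNA, was not tested.

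MI mice 2 and 3 allow the members to be read in 2 libraries of the same mouse. In mouse 3 the 32 genes agreed closely, with a median absolute log2 ratio of 0.17 (0.18 over 7474 genes) and 1 gene, Ecscr, over 1.5-fold apart. In mouse 2 it was 0.45 (0.38 over the same genes), and 12 members were over 1.5-fold apart. There the 1st library had lower values for 20 genes and higher for 12. Fabp4 had 1037 CPM in the 1st and 669 in the 2nd library, Cdh5 124 and 215, Aqp1 205 and 341, Vwf 36.0 and 75.8, and Cldn5 23.5 and 7.80, the last from 7 counts in the 2nd. Such gaps in mouse 2 are larger than most fold changes between the groups. A chi-square per gene, a measure of how far the counts of 2 libraries differ, was 13.1 for mouse 2 and 2.78 for mouse 3. The gaps are thus those of mouse 2 and give no general size of repeat error. Why its libraries differed more was not tested. The genes higher in MI that were close in both pairs of libraries included Cav1 (ratios of 0.06 and -0.11 on the log2 scale), Egfl7 (0.10 and 0.06) and Ly6c1 (0.19 and 0.13). With the 1st libraries in place of the 2nd, no member passed the threshold in any comparison. In MI against sham vehicle 9 members then had higher and 3 lower values at an unadjusted p under 0.05, Kdr joining Eng and Vwf, where 1430 of 9691 genes reached that level in either direction. In NECA-treated MI against MI, Cldn5, Egfl7 and Icam2 then had lower values at that level, and Cd93, with a fold change of -0.16, did not. There 1064 of 9691 genes reached that level, so 3 of 32 members was near the share of all genes.

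**Figure D4:**
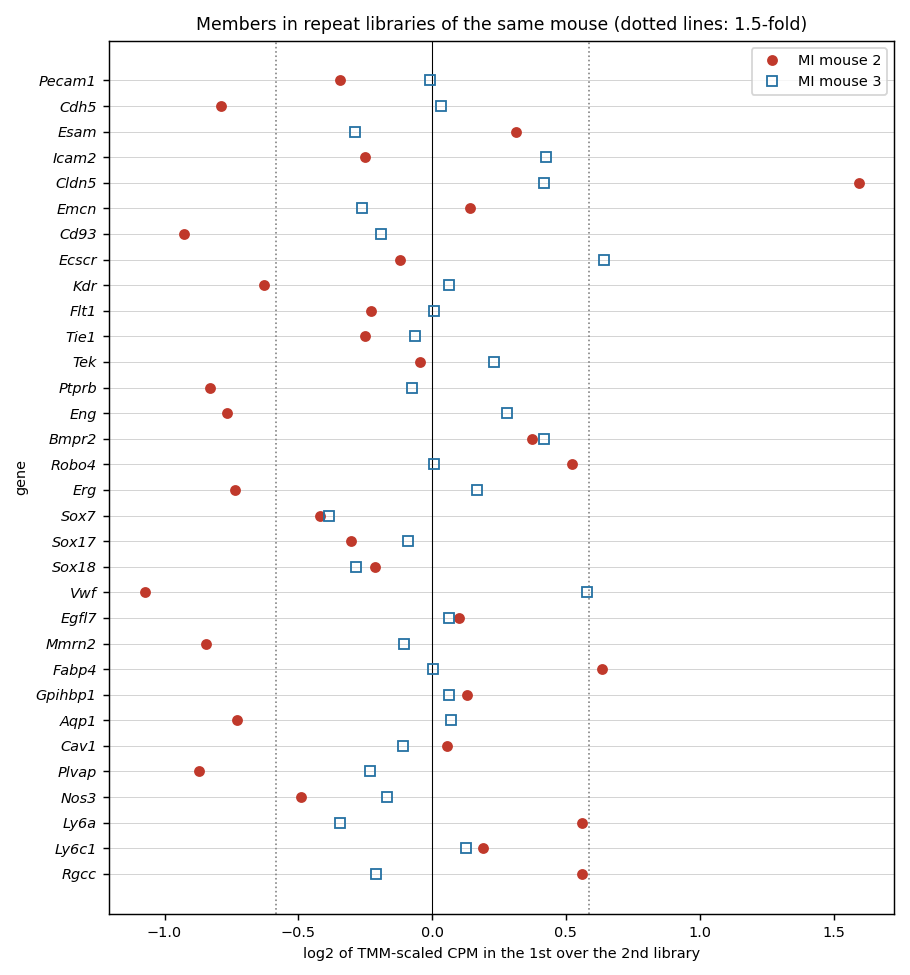
Log2 ratio of the TMM-scaled CPM in the 1st over the 2nd library for each of the 32 genes, with MI mouse 2 as filled circles and MI mouse 3 as open squares, and dotted lines at 1.5-fold. Mouse 2 spreads from -1.07 (Vwf) to 1.59 (Cldn5), mouse 3 from -0.39 (Sox7) to 0.64 (Ecscr).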

How the data were processed

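Myocardial RNA of 10 mice was measured in 12 libraries by a CEL-Seq2 3′ protocol, without pooling of samples, per the labels' protocols. FastQC 0.11.9, STAR and RSEM were used with the build GRCm39, per the submitters' processing notes. No annotation release, collapse by molecular identifier or strand setting is given in the sources used here. Expected counts per gene were deposited by the authors as whole numbers, with a second table of log2(TPM + 1), scaled by gene length although 3′ reads do not grow with length. Of 57054 rows, 306 had values only in the 1st libraries and 101 lacked them only there, and the 56647 others were used. Symbols came from GENCODE M21 by Ensembl identifier (52029 rows matched). Promoters came from RefSeq on GRCm38.p6, and no coordinates of the counted genes are given because the builds differ.

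The mouse was the replicate. Nothing in the labels says more of how the mice were kept or paired. Depth was 0.96 to 1.33 M counts in the 10 libraries compared, and TMM factors were 0.885 to 1.13. The 1st libraries, a batch that holds MI mice alone, were left out of the main comparisons and used as alternatives. The test of counts was that of edgeR 4.0.16, run in R 4.3.3 (filterByExpr, TMM, robust quasi-likelihood test in 1 fit over 10 mice, two-sided, Benjamini-Hochberg over 9505 genes). Standard errors are the fold change divided by the root of its test statistic. Values with fewer than 10 counts in a library are imprecise.

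The 32 members, their 6 roles and 19 further lists were chosen with earlier results of these data known, so they carry no list-wide p. Values in every library are given for members past the threshold, the 2 of highest mean CPM in each role, and the 3 of smallest p in each comparison. Other members are given by range, and other lists by genes past the threshold or the 2 of smallest p. Exceptions are named. Alternatives were summed or 1st libraries, RLE or no scaling, 2 other count filters, DESeq2 1.42.0, limma 3.58.1 on log2(TPM + 1), the 2 groups alone, a replicate block, and each mouse left out.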

Additional observations from a re-analysis of the deposited data

Results flagged for a closer look

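Ly6a in the NECA-treated MI mice had 1 mouse apart from the others. NECA-treated mouse 2 measured 95.6 CPM and mice 1, 3 and 4 measured 79.3, 80.6 and 77.8. The gap to the nearest other mouse was 0.844 of the whole range, above Dixon's 95% critical value for 4 mice. The 32 genes and their sum were examined in this group, and chance flags about 1 in 20 such groups.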

How the results depend on the processing

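No member passed the threshold in any of the 3 comparisons under the alternatives run, with 1 exception. With no filter on low counts 2 members passed in MI against sham vehicle, Vwf at -1.04 (adjusted p = 3.27e-04) and Sox17 at 1.41 (adjusted p = 0.0392, both edgeR), where 191 of 20308 genes were called. The median of the members in MI against sham vehicle ran from 0.209 to 0.385 when 1 mouse at a time was left out (lowest without MI mouse 3), in NECA-treated MI against MI from -0.253 to -0.0982, and in NECA-treated MI against sham vehicle from 0.0402 to 0.181. The ratio of the summed level of MI to sham vehicle mice was 1.17 by counts and 1.27 by summed TPM. limma on log2(TPM + 1) shifted the median of all genes to 0.0977 in MI against sham vehicle.

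Counts over all genes moved more. In MI against sham vehicle the 7 genes became 15 with summed libraries, 12 with 1st libraries, and 0 with limma or with the 2 groups alone (897 and 728 genes at an unadjusted p under 0.05). With 1 mouse left out the count ran from 0, without sham vehicle mouse 2 (850 genes unadjusted), to 50, without sham vehicle mouse 3. In NECA-treated MI against MI the 0 became 1 with summed or 1st libraries, 8 with no filter, and 0 to 2 with 1 mouse left out. In NECA-treated MI against sham vehicle the 1 became 0 with summed libraries, 1st libraries or limma (411, 408 and 467 unadjusted), 4 with no scaling beyond library totals, 43 with no filter, 6 with DESeq2, 7 with the 2 groups alone, 4 with the replicate block, and 0 to 7 with 1 mouse left out.

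Of 96 member fold changes, 38 lay within 1 SE of 0 and have no direction, and 6 of the other 58 changed sign. Ptprb in MI against sham vehicle was -0.0629 with summed and -0.0731 with 1st libraries. In NECA-treated MI against MI with 1st libraries Kdr was 0.00252, Sox7 0.00826 and Nos3 0.00251. With 1 mouse left out, Vwf in NECA-treated MI against sham vehicle ran from -0.887 to 0.0365 and Plvap from -1.24 to 0.259, both highest without sham vehicle mouse 3 and lowest without mouse 2. The causes were not tested. The labels do not say whether mouse numbers pair the mice. Of 9 same-numbered pairs, 2 deviated together with a correlation over 0.1. Correlations ran from -0.23 to 0.19 in same-numbered pairs and from -0.27 to 0.27 in the other pairs. With so few mice these values cannot show whether the number pairs the mice. With the number as a replicate block, 8, 0 and 4 genes were called in the 3 comparisons and no member. Depth limits the low members, since Sox17 held 4 to 28 counts per mouse. The alternatives for genes of the other lists were chosen after seeing the data.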
